A study of Oreochromis niloticus with 6 samples.

Results

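Transglutaminases join proteins by a bond between a glutamine of one chain and a lysine of another. The reaction needs calcium and leaves cross-links that resist proteases, which is how fibrin clots, the surface of stratified epithelia and parts of the extracellular matrix are hardened. Gill combines a thin epithelium, a dense blood supply and a cartilage skeleton, so it holds several of the settings in which mammalian members of the family work.

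The family was taken by gene name from a table of 40538 gene rows measured in gill of Nile tilapia. Rows counted as members if their symbol began with tgm and a digit, or was f13a1 with a copy letter. The rule found 14 rows with 8 symbols, of which 6 are separate tgm8 loci. Although the rule reads names, the family was selected on the hypoxia to control difference in FPKM that these loci were known to show, so their values in that contrast are a description and carry no p-value.

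The fish were GIFT tilapia, a farmed strain of Nile tilapia bred for growth, and RNA-seq was made from gill. There were 3 libraries labelled hypoxia, from fish in water brought down to 1.02 ± 0.10 mg/L dissolved oxygen within 30 min with nitrogen, and 3 labelled control, from fish kept at 5 mg/L. Gills of both groups were taken at 96 h. On the layout the labels give conflicting accounts (3 tanks per group with 15 fish each and 90 in all in one text, 4 replicates and 30 fish per 500 L tank in another), and neither the tank of a library nor any pooling of fish is given, so p-values measure only the spread between these libraries, which may be technical.

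Levels are in FPKM, fragments scaled to transcript length and library size, and so can be compared between genes. The markers fixed for gill epithelium and ionocytes matched 21 rows with summed levels of 649 to 875 FPKM in labelled hypoxia libraries and 781 to 1015 FPKM in labelled control libraries, with epcam among the highest and both cftr rows at 1.17 FPKM or less in all 6 libraries. Only egln3 was read as a check of the labels, and it went against them. The level of egln3, a prolyl hydroxylase gene that low oxygen induces through HIF in mammals, was 3.25, 2.55 and 3.95 FPKM in labelled hypoxia libraries and 112, 50.4 and 46.4 FPKM in labelled control libraries (limma, adjusted p = 0.00923), and the group names are used here as labels only.

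The 14 loci spanned a wide range of levels, and 8 of them averaged 1 FPKM or more over the 6 libraries, the minimum for testing. The other 6 lay between 0 and 1.23 FPKM in every library. In labelled hypoxia libraries the order of mean levels was tgm8 MSTRG.25175, tgm1l1, tgm2b, tgm5l, f13a1b, tgm8 MSTRG.36809 and tgm1l2, and the range of each locus overlapped that of the next. In labelled control libraries tgm5l came first, followed by tgm8 MSTRG.36809, f13a1b and tgm1l1, whose ranges overlapped from one to the next. The lowest tgm5l value, 13.4 FPKM, was just above the highest of tgm8 MSTRG.36809, 13.1 FPKM. The highest f13a1b value, 16.9 FPKM, lay within the tgm5l range. In this group tgm8 MSTRG.25175 ranked 10 of the 14.

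**Figure D1:**
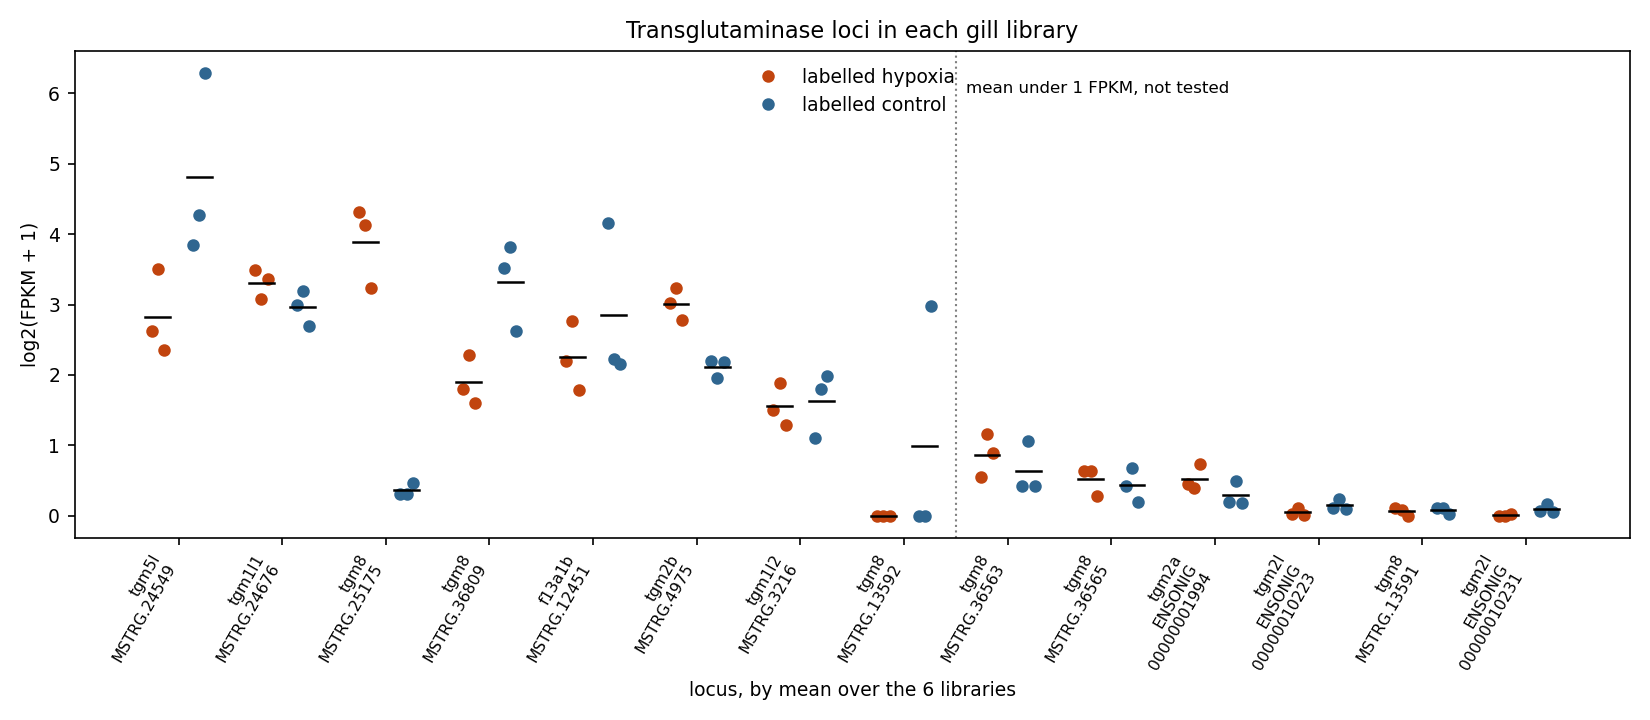
Level of each of the 14 transglutaminase loci in each library, as log2(FPKM + 1), with labelled hypoxia left of labelled control at each locus. Points are libraries, bars are means of the 3 log2 values, and the dotted line parts the 8 tested loci from the 6 with a mean under 1 FPKM. The labelled hypoxia points of tgm8 MSTRG.25175 and tgm2b lie above, and those of tgm5l and tgm8 MSTRG.36809 below, all their labelled control points.

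Among the tested members, 2 of 8 passed an adjusted p under 0.05 in the limma fit of all rows, both higher in labelled hypoxia, beside 6.77% of all 25111 tested rows in either direction and 3.46% higher. Groups without overlap were found at 4 of the 8, beside 33.2% of all tested rows, and 2 were higher and 2 lower, beside 19.1% and 14.0%. As the family was chosen with this contrast in view, nothing is read from either count.

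The largest difference in the family was at tgm8 MSTRG.25175, a locus assembled as 2 transcripts. tgm8 is a transglutaminase symbol of fish, and no role is given to it here. Its level was 19.0, 16.5 and 8.42 FPKM in labelled hypoxia libraries 1 to 3, against 0.239, 0.242 and 0.384 FPKM in labelled control libraries 1 to 3. The lowest labelled hypoxia library was thus far above the highest labelled control library. The means were 14.6 ± 5.52 FPKM in labelled hypoxia and 0.288 ± 0.0829 FPKM in labelled control (SD, n = 3 each), a ratio of 50.8, which stayed between 43.2 and 61.5 with any 1 library left out. FPKM keep no read numbers, so the counting error of the low labelled control values under this ratio is unknown, and the ratio describes these libraries. The difference on the log2(FPKM + 1) scale was 3.53 ± 0.30 (SE), and this scale understates the change of a locus that is near 0 in one group, since a pseudocount of 0.1 gave 5.18.

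The locus with the next StringTie number, MSTRG.25176, has no gene name and moved with it. Its level was 15.9, 14.8 and 3.02 FPKM in labelled hypoxia libraries and 0.0444, 0.0835 and 0.734 FPKM in labelled control libraries, a log2 change of 3.03 ± 0.59 (SE). It was looked up for its place beside the most changed member, so these values are a description and carry no p-value. In both loci hypoxia library 3 was the lowest of its group and control library 3 the highest of its group. The locus on the other side by number, MSTRG.25174, had 0, 8.82 and 0.135 FPKM in labelled hypoxia libraries and 1.90, 2.58 and 1.82 FPKM in labelled control libraries, with overlapping groups. Assembled loci can split a gene, and whether MSTRG.25175 and MSTRG.25176 are 1 transcribed unit was not tested.

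A different tgm8 locus differed in the opposite direction. tgm8 MSTRG.36809, assembled as 4 transcripts, had 2.48, 3.88 and 2.04 FPKM in labelled hypoxia libraries, against 10.4, 13.1 and 5.14 FPKM in labelled control libraries. The groups did not overlap, and control library 3 and hypoxia library 2 lay nearest to each other. The means were 2.80 ± 0.962 FPKM in labelled hypoxia and 9.54 ± 4.04 FPKM in labelled control (SD, n = 3 each), so labelled control was 3.41 times labelled hypoxia. With 1 library left out this ratio lay between 2.78 and 4.22, and the log2 change was -1.42 ± 0.35 (SE).

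The remaining 4 tgm8 loci were low or seen in 1 library. MSTRG.13592 was listed at 0 in all 3 labelled hypoxia libraries and in control libraries 1 and 2, and at 6.85 FPKM in control library 3, so it entered the test through that library alone. Its neighbour by number, tgm8 MSTRG.13591, did not exceed 0.0823 FPKM in any library. MSTRG.36563 had 0.466, 1.23 and 0.862 FPKM in labelled hypoxia and 0.344, 1.08 and 0.333 FPKM in labelled control. In MSTRG.36565 the levels were 0.551, 0.559 and 0.216 FPKM in labelled hypoxia and 0.343, 0.601 and 0.146 FPKM in labelled control. Both of these loci had overlapping groups, and library 2 was the highest of each group in both.

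Near-identical copies can share reads, so levels of single tgm8 loci are uncertain where the authors' assembly could divide reads between them. Apart from differences in length between loci, the sum over the 6 tgm8 loci leaves such a division out. It was 22.6, 22.2 and 11.5 FPKM in labelled hypoxia libraries and 11.4, 15.1 and 12.9 FPKM in labelled control libraries, with overlapping groups and means of 18.8 ± 6.27 FPKM in labelled hypoxia and 13.1 ± 1.82 FPKM in labelled control (SD, n = 3 each). The opposite differences at MSTRG.25175 and MSTRG.36809 therefore went with a tgm8 sum whose ranges overlapped, and how far reads were divided between copies was not tested.

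Among the members named after the epidermal enzymes, tgm5l had the highest level of the family in labelled control. Mammalian TGM1 and TGM5 cross-link the cornified envelope of skin. The level of tgm5l (MSTRG.24549, 3 transcripts) was 5.18, 10.3 and 4.11 FPKM in labelled hypoxia libraries, against 13.4, 18.4 and 77.3 FPKM in labelled control libraries. All labelled hypoxia libraries were lower than all labelled control libraries, and control library 3 stood far above the other 5. The means were 6.54 ± 3.33 FPKM in labelled hypoxia and 36.4 ± 35.5 FPKM in labelled control (SD, n = 3 each), with labelled control 5.56 times labelled hypoxia. Without control library 3 the ratio was 2.43, against a labelled control mean of 15.9 FPKM. The log2 change was -1.98 ± 0.68 (SE).

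Of the 18 tested rows of epithelial envelope and junction substrates, 4 were highest in control library 3, the library in which tgm5l was highest, and the other 14 were highest elsewhere. The 4 were jupa, anxa1c, evpla and ppl. The share of all tested rows that were highest in this library is not given here, so nothing is read from the count. jupa, which encodes the junction protein plakoglobin, had 79.9, 78.2 and 64.8 FPKM in labelled hypoxia and 69.7, 97.2 and 174 FPKM in labelled control. anxa1c, a copy of the annexin that is a known envelope substrate in mammals, had 45.2, 51.3 and 33.2 FPKM in labelled hypoxia and 69.6, 63.8 and 110 FPKM in labelled control. evpla, the envoplakin gene, had 124 FPKM in control library 3. Other rows peaked elsewhere. The second annexin copy anxa1a was highest in control library 2, at 1668 FPKM, and had 784 FPKM in control library 3. krt4, krt5 and krt15 were highest in labelled hypoxia libraries. Groups did not overlap at 10 of the 18 rows, beside 33.2% of all tested rows, and nothing is read from this count either. anxa1a (539, 531 and 540 FPKM in labelled hypoxia), anxa1c, evpla, ppl and pkp3b MSTRG.622 were lower in labelled hypoxia, as tgm5l was. krt4, krt5, krt15, PKP1 and pkp1b were higher. The summed marker list of gill epithelium was lowest of the labelled control libraries in control library 3, at 781 FPKM. The part of cell composition in the tgm5l difference was not tested, and in a bulk sample fewer cells of a type and less RNA per cell cannot be told apart. Chosen after values were seen, the named rows with the highest Pearson correlation with tgm5l of log2 values over the 6 libraries were txnrd1 (0.997), arrdc1a (0.992), lrpprc (0.991), unkl (0.990) and epha2a (0.989).

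The 2 members named tgm1-like showed small differences with overlapping groups. tgm1l1 (MSTRG.24676) had 10.3, 7.45 and 9.26 FPKM in labelled hypoxia libraries and 6.93, 8.15 and 5.49 FPKM in labelled control libraries, with means of 8.99 ± 1.43 FPKM in labelled hypoxia and 6.86 ± 1.34 FPKM in labelled control (SD, n = 3 each). Its log2 change was 0.35 ± 0.18 (SE), opposite in sign to that of tgm5l. tgm1l2 (MSTRG.3216) had 1.84, 2.68 and 1.44 FPKM in labelled hypoxia and 1.15, 2.47 and 2.95 FPKM in labelled control, and a log2 change of -0.07 ± 0.29, whose sign turned without hypoxia library 3, control library 2 or control library 3. Levels of the 3 epidermal-type members thus did not move together.

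Transglutaminase 2 is the widely expressed member in mammals, where it cross-links matrix proteins, binds GTP and acts with integrins at the cell surface. Of the members with a tgm2 symbol, tgm2b (MSTRG.4975) was the one with a level above 1 FPKM. It had 7.12, 8.44 and 5.87 FPKM in labelled hypoxia libraries, against 3.57, 2.88 and 3.55 FPKM in labelled control libraries. Every labelled hypoxia library was above every labelled control library, and the spread within groups was small. The means were 7.14 ± 1.28 FPKM in labelled hypoxia and 3.34 ± 0.391 FPKM in labelled control (SD, n = 3 each), a ratio of 2.14 that stayed between 1.95 and 2.33 with any 1 library left out. The log2 change was 0.90 ± 0.16 (SE).

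The other tgm2 members were near the floor of the data. tgm2a had 0.360, 0.315 and 0.655 FPKM in labelled hypoxia and 0.147, 0.401 and 0.133 FPKM in labelled control. The highest level of either tgm2l row in any library was 0.177 FPKM, in control library 2. One of these rows, ENSONIG00000010231, was listed at 0 in hypoxia libraries 1 and 2 and had 0.0139 FPKM in hypoxia library 3, against 0.0452, 0.124 and 0.0406 FPKM in labelled control libraries, without overlap. The other row and tgm2a had overlapping groups, and all 3 rows were too low for the test.

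Factor XIII A is the plasma and blood cell transglutaminase that ties fibrin strands in a clot, and f13a1b (MSTRG.12451) was its one member copy. It had 3.57, 5.82 and 2.46 FPKM in labelled hypoxia libraries and 16.9, 3.67 and 3.47 FPKM in labelled control libraries. A single library, control library 1, stood apart, and the other 5 overlapped. The means were 3.95 ± 1.71 FPKM in labelled hypoxia and 8.01 ± 7.70 FPKM in labelled control (SD, n = 3 each), with a log2 change of -0.60 ± 0.59 (SE). Without control library 1 the labelled control mean was 3.57 FPKM, and the direction turned, with labelled hypoxia 1.11 times labelled control.

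Of the 5 erythrocyte rows, 3 were highest in control library 1, namely alas2 and both epor rows. Nothing is read from this count, as the share of all tested rows highest in that library is not given here. alas2, which encodes the first enzyme of heme synthesis in erythroid cells, had 47.6, 96.2 and 55.8 FPKM in labelled hypoxia and 171, 14.3 and 16.9 FPKM in labelled control. The erythropoietin receptor row epor MSTRG.6738 had 12.9 to 26.4 FPKM in labelled hypoxia and 38.4, 14.8 and 13.9 FPKM in labelled control. The low row epor MSTRG.6737 had 1.75, 0.499 and 1.91 FPKM in labelled hypoxia and 1.99, 0.361 and 0.318 FPKM in labelled control. Its value in control library 1 was thus close to those in hypoxia libraries 1 and 3. The other 2 rows, copies of the band 3 anion exchanger gene, did not follow: slc4a1a was highest in hypoxia library 2, at 43.8 FPKM against 32.3 FPKM in control library 1, and slc4a1b in control library 2, at 20.8 FPKM. None of the 5 is a hemoglobin row, and the list gave sums of 94.2 to 177 FPKM in labelled hypoxia and 51.6 to 253 FPKM in labelled control. The thrombocyte list (4 rows) summed to 31.8 to 52.1 FPKM in labelled hypoxia and 27.9 to 51.6 FPKM in labelled control. The macrophage list (11 rows, timd4 under 1 FPKM throughout) summed to 91.6 to 170 FPKM in labelled hypoxia and 107 to 150 FPKM in labelled control, and was not high in control library 1. Groups did not overlap at 4 of the 9 tested macrophage rows, beside 33.2% of all tested rows. In labelled hypoxia, csf1ra and spi1b were higher, and mrc1a MSTRG.2316 and mrc1b MSTRG.704 lower. Of the thrombocyte genes, itga2b was highest in hypoxia library 2 at 18.6 FPKM and next in control library 1 at 12.2 FPKM. The part of blood cell content in the f13a1b values was not tested. By the same measure as for tgm5l, and also chosen after values were seen, the rows most like f13a1b were cant1b (0.997), fnip1 (0.995), dmtn (0.990), kdelr3 (0.990) and ing5a (0.987).

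**Figure D2:**
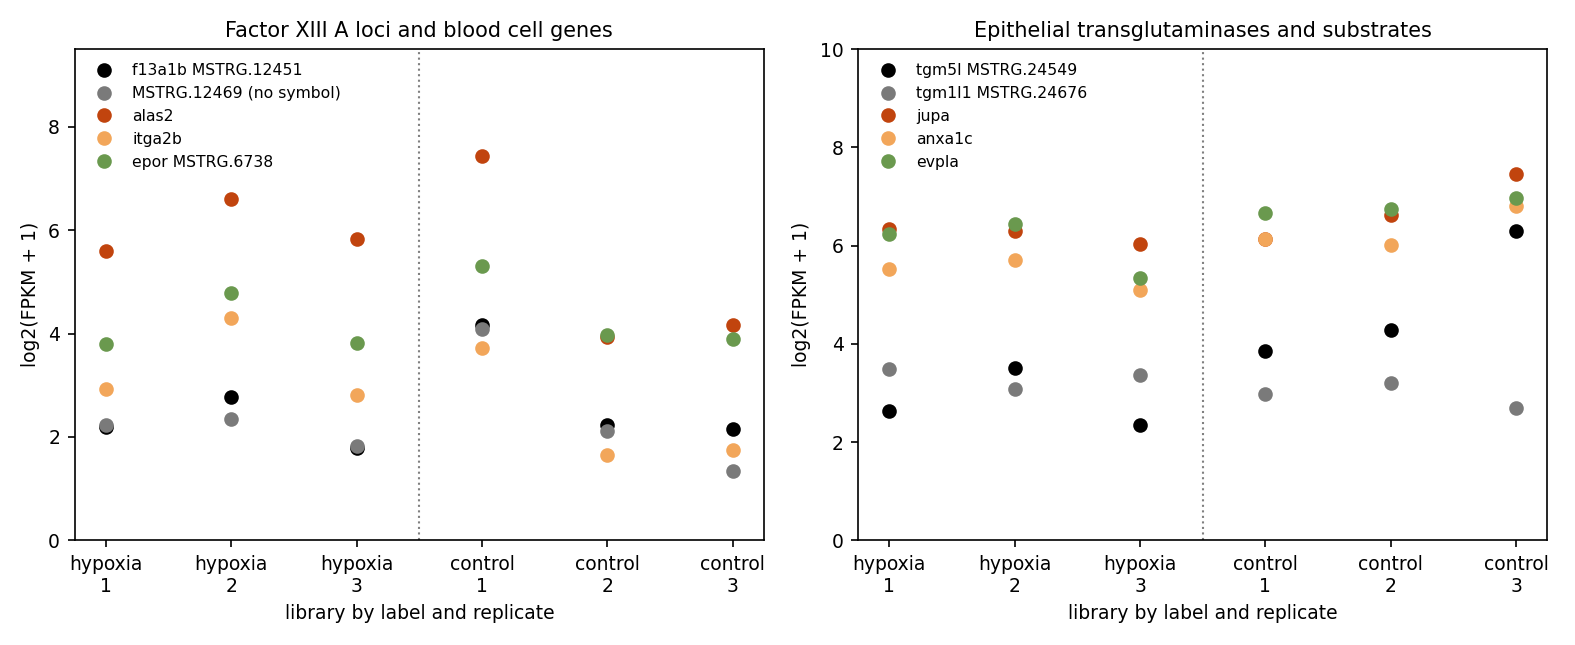
Level of f13a1b with blood cell genes (left) and of tgm5l and tgm1l1 with epithelial substrates (right) in each library, as log2(FPKM + 1), labelled hypoxia left of the dotted line and labelled control right of it. f13a1b, alas2 and epor are highest in control library 1, and tgm5l, jupa, anxa1c and evpla in control library 3; these genes were chosen after values were seen, and other rows of both lists peak elsewhere.

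The table's own annotation gives the transglutaminase enzyme number to 11 of the 14 members and to 4 rows outside the name rule. MSTRG.12469, which has no symbol and carries the factor XIII A orthology term, had 3.70, 4.07 and 2.53 FPKM in labelled hypoxia libraries and 16.1, 3.36 and 1.55 FPKM in labelled control libraries. Like f13a1b it was highest in control library 1, and the correlation of the log2 values of the pair over 6 libraries was 0.93. f13a1a.1, a factor XIII A copy that the name rule leaves out, was listed at 0 in 5 libraries. The other rows, MSTRG.12598 and MSTRG.14505, have no symbol and share a different orthology term, K05625. They averaged 3.09 and 2.48 FPKM over the 6 libraries and did not pass the limma test (adjusted p = 0.252 and 0.962). Whether either is a further copy of a named member was not tested. MSTRG.12598 had 2.32, 2.78 and 1.35 FPKM in labelled hypoxia and 3.07, 6.14 and 2.87 FPKM in labelled control, without overlap.

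Summed over the 14 members, transglutaminase levels overlapped between the groups while their make-up differed. The sum was 50.9, 57.3 and 35.4 FPKM in labelled hypoxia libraries and 53.7, 51.3 and 106 FPKM in labelled control libraries. The highest sum was that of control library 3, in which tgm5l made up 73.0% of it. Without tgm5l the sum was 41.3 ± 8.76 FPKM in labelled hypoxia and 33.9 ± 5.92 FPKM in labelled control (SD, n = 3 each). tgm8 MSTRG.25175 made up 37.3%, 28.8% and 23.8% of the family sum in labelled hypoxia libraries and 0.445%, 0.471% and 0.363% in labelled control libraries. For tgm5l the shares were 10.2%, 18.0% and 11.6% in labelled hypoxia and 25.0%, 35.8% and 73.0% in labelled control. The leading locus of the family was thus tgm8 MSTRG.25175 in labelled hypoxia libraries 1 and 2, tgm1l1 in hypoxia library 3, tgm5l in control libraries 2 and 3, and f13a1b, at 31.5%, in control library 1.

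**Figure D3:**
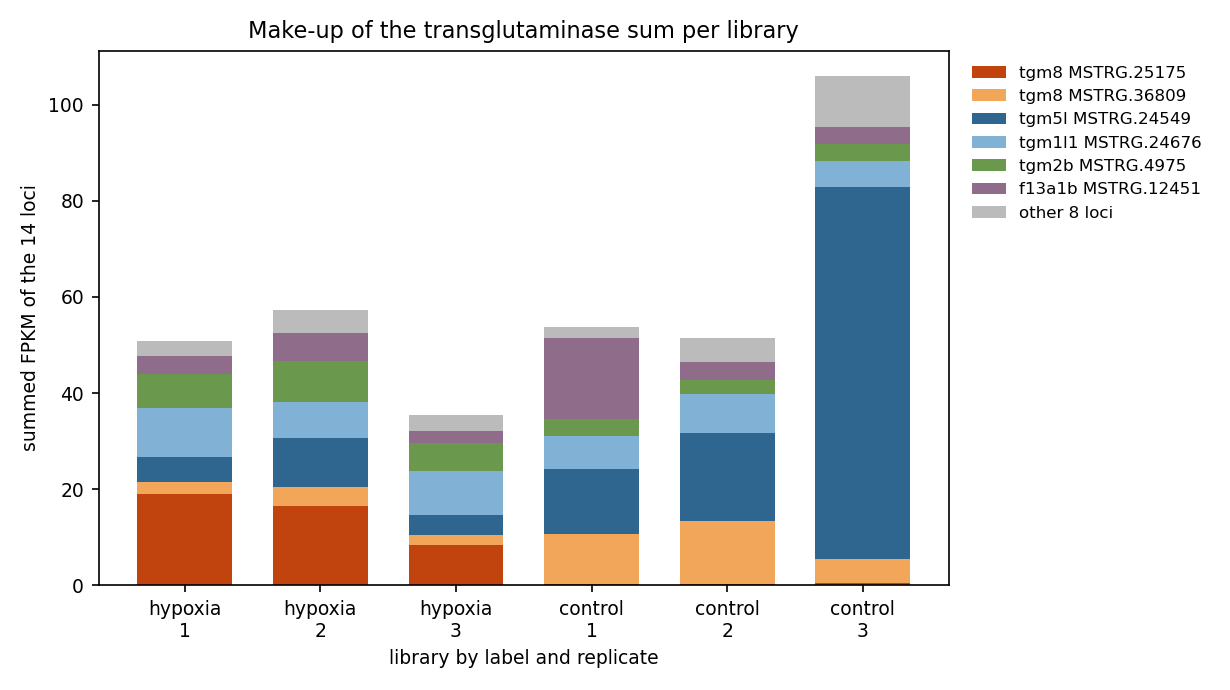
Summed FPKM of the 14 transglutaminase loci in each library, stacked by locus, with labelled hypoxia on the left and labelled control on the right. The sum is 35.4 to 57.3 FPKM in labelled hypoxia and 51.3 to 106 FPKM in labelled control. tgm8 MSTRG.25175 is a visible band in the labelled hypoxia bars alone.

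The named rows most like tgm8 MSTRG.25175, by Pearson correlation of log2 values over the 6 libraries among tested rows, were SUN1 (0.998), METTL4 (0.997), SERINC4 (0.996), PTPRD (0.995) and st6gal1 (0.994). SUN1 encodes a protein of the inner nuclear membrane, and st6gal1 a sialyltransferase of the Golgi. METTL4 had 6.91, 5.67 and 3.69 FPKM in labelled hypoxia and 0.374, 0.557 and 0.379 FPKM in labelled control. SERINC4 had 15.4, 14.6 and 11.7 FPKM in labelled hypoxia and 3.33, 2.92 and 3.81 FPKM in labelled control. Within the family, the correlation of tgm8 MSTRG.25175 was 0.97 with tgm2b and -0.83 with tgm8 MSTRG.36809, all of these over 6 libraries that form 2 groups.

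Summed levels of some marker lists also differed between the groups in which tgm8 MSTRG.25175 and tgm2b differed. The cartilage and bone list (17 rows, with col9a1b and sp7 under 1 FPKM throughout) summed to 291 to 434 FPKM in labelled hypoxia and 82.6 to 91.3 FPKM in labelled control. Its largest row, col10a1b MSTRG.19715, had 250, 150 and 226 FPKM in labelled hypoxia and 32.3, 30.4 and 35.6 FPKM in labelled control. Groups did not overlap at 11 of the list's 15 tested rows, beside 33.2% of all tested rows. They overlapped at sox9a, SOX9, acana and matn1. The skeletal muscle list (20 rows, acta1a under 1 FPKM) summed to 732 to 919 FPKM in labelled hypoxia and 368 to 480 FPKM in labelled control. Groups did not overlap at 12 of its 15 tested rows, beside 33.2% of all tested rows. Among these, ttn.1 MSTRG.29008 went the other way, at means of 1.21 FPKM in labelled hypoxia and 2.74 FPKM in labelled control. Groups overlapped at ryr1a MSTRG.11585, ryr1b and ttn.1 MSTRG.29007. For T and B cells (6 rows, one pax5 row under 1 FPKM) the sums were 60.7 to 70.6 FPKM in labelled hypoxia and 34.7 to 44.4 FPKM in labelled control. At 3 of the 4 tested rows the groups did not overlap, beside 33.2% of all tested rows. These were the T cell genes lck, zap70 and cd8a, all higher in labelled hypoxia. The B cell rows, cd79a and both of pax5, had overlapping groups. In each of these 3 lists the sums of the groups did not overlap. The mucous cell list rested on 2 rows, of which agr2 did not overlap (159, 279 and 103 FPKM in labelled hypoxia, 64.0, 60.2 and 61.7 FPKM in labelled control) and SPDEF did, so its sum of 106 to 282 FPKM in labelled hypoxia and 63.6 to 66.2 FPKM in labelled control is that of 1 gene. The sums of granulocyte markers (7 rows, one LECT2 row under 1 FPKM) overlapped, at 89.8 to 119 FPKM in labelled hypoxia and 101 to 105 FPKM in labelled control. Those of endothelial markers (8 rows) did too, at 38.2 to 44.2 FPKM in labelled hypoxia and 39.8 to 43.3 FPKM in labelled control. The overlapping granulocyte sums hold rows that differed: groups did not overlap at 2 of 6 tested rows, beside 33.2% of all tested rows. These 2, LECT2 MSTRG.14955 and nccrp1, were lower in labelled hypoxia. Their means were 1.47 and 16.5 FPKM in labelled hypoxia and 8.80 and 27.3 FPKM in labelled control. The part of these cell types in the transglutaminase differences was not tested.

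Genes that supply, regulate or receive cross-links were read from the same fit in 6 lists, with 132 rows matched and 104 tested. In all, 15 passed an adjusted p under 0.05, 9 higher and 6 lower in labelled hypoxia, which is 14.4% beside 6.77% of all tested rows. The median log2 change was 0.14 over the 104 rows and 0.05 over all tested rows. The lists were chosen with earlier results of these data known. No excess over all tested rows is therefore read from this share or from those of single lists below.

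Of the matrix and cell surface partners of transglutaminase 2, 9 of 35 tested rows rose and 1 fell, and 25 did not pass, beside 3.46% of all tested rows higher and 3.30% lower. The median log2 change was 0.25. Fibrillar collagens led: col1a1 MSTRG.10962 had 161, 128 and 130 FPKM in labelled hypoxia libraries, against 35.0, 47.1 and 39.9 FPKM in labelled control libraries, a log2 change of 1.76 ± 0.15 (SE; limma, adjusted p = 0.00923). The second chain of type I collagen, col1a2, had 105, 88.7 and 75.9 FPKM in labelled hypoxia and 28.7, 35.9 and 35.8 FPKM in labelled control (log2 change 1.40 ± 0.16; adjusted p = 0.0136). Both rose with groups far apart, and so did the copy col1a1b, by 2.42 ± 0.31 (adjusted p = 0.0163). The other 6 that rose were col5a1 MSTRG.15172, col5a2b, col2a1b, the small proteoglycans dcn and bgnb, and the fibronectin copy fn1a. fn1a, whose product is a classic transglutaminase substrate, had 39.7, 34.4 and 32.0 FPKM in labelled hypoxia and 22.4, 19.6 and 23.8 FPKM in labelled control (adjusted p = 0.0378). The fibronectin copy fn1b had 31.1, 40.6 and 26.9 FPKM in labelled hypoxia and 40.7, 50.0 and 62.2 FPKM in labelled control, without overlap. Its log2 change was -0.62 ± 0.21, opposite in sign to that of fn1a, and it did not pass (limma, adjusted p = 0.141). Over the 6 libraries fn1b averaged 41.9 FPKM and fn1a 28.7 FPKM. The other col5a1 row, MSTRG.15171, had overlapping groups and a log2 change of 0.22 ± 0.20 (limma, adjusted p = 0.547).

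The row that fell in this list was itgb3a, a copy of the gene of integrin beta 3, with which mammalian transglutaminase 2 can associate. It had 21.5, 18.1 and 19.7 FPKM in labelled hypoxia libraries, against 41.0, 38.5 and 38.9 FPKM in labelled control libraries, a log2 change of -0.97 ± 0.10 (SE; limma, adjusted p = 0.0117). Its groups were tight and far apart. The other copy, itgb3b, had overlapping groups and a log2 change of 0.10 ± 0.48 (limma, adjusted p = 0.923). With each library left out in turn, col1a1, col1a2 and itgb3a passed in all 6 fits. col1a1b, col5a1 MSTRG.15172 and col5a2b passed without control library 1 or hypoxia library 2 and missed otherwise. fn1a missed in all 6 (adjusted p = 0.0671 to 0.118) and under both other scalings (0.0683 on the TPM scale, 0.0514 with median-of-ratios). dcn passed without control library 1 alone, bgnb without hypoxia library 2 alone, and col2a1b without hypoxia library 3 alone. col2a1b also missed on the TPM scale (adjusted p = 0.0543), and without the filter on low values bgnb and col2a1b (both 0.0677) and fn1a (0.0510) missed. The collagen rows moved with the cartilage and bone list, which shares the col2a1 rows with this one, and its part in the result was not tested.

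Among redox and calcium regulators of transglutaminase 2, 0 of 16 tested rows rose and 3 fell, beside 3.30% of all tested rows lower, with a median log2 change of -0.67. calr, which encodes the calcium-binding chaperone calreticulin of the endoplasmic reticulum, had 43.1, 44.1 and 37.6 FPKM in labelled hypoxia libraries, against 107, 135 and 134 FPKM in labelled control libraries (log2 change -1.56 ± 0.13; limma, adjusted p = 0.00923). txnipa MSTRG.23110, which encodes a binding inhibitor of thioredoxin, had 153, 138 and 136 FPKM in labelled hypoxia and 401, 299 and 365 FPKM in labelled control (log2 change -1.30 ± 0.13; adjusted p = 0.0116). HSPA5 MSTRG.9553, the chaperone BiP, had 49.5, 58.0 and 38.6 FPKM in labelled hypoxia and 110, 144 and 180 FPKM in labelled control (log2 change -1.54 ± 0.23; adjusted p = 0.0216). All of these had groups without overlap. Other tested rows named HSPA5 did not pass, and their log2 changes went both ways. They were 1.56 at MSTRG.24154 and 2.11 at MSTRG.24160. At MSTRG.24147, MSTRG.24169 and MSTRG.32929 they were -1.68, -1.39 and -1.12. The copy txnipb had overlapping groups and a log2 change of 0.10 ± 0.16 (limma, adjusted p = 0.734). Calreticulin and BiP are general chaperones rather than dedicated regulators of the enzyme. calr and txnipa passed in all 6 fits with 1 library left out, and HSPA5 MSTRG.9553 passed without control library 1 or hypoxia library 2 alone. The disulfide isomerase gene pdia3 had a log2 change of -0.57 and did not pass (adjusted p = 0.0648).

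In the polyamine list, whose products are small amine substrates of the enzymes, 0 of 13 tested rows rose and 1 fell, which is 7.69% and near the 6.77% of all tested rows. odc1, the gene of the first enzyme of polyamine synthesis, had 5.92, 5.99 and 4.64 FPKM in labelled hypoxia libraries, against 10.6, 15.4 and 10.0 FPKM in labelled control libraries (log2 change -0.98 ± 0.19; limma, adjusted p = 0.0406). Its groups did not overlap, but it passed in none of the 6 fits with 1 library left out (adjusted p = 0.0671 to 0.130) nor without the filter on low values (0.0661).

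Retinoic acid induces transglutaminase 2 in mammalian cells, and in the retinoid list 0 of 17 tested rows rose and 1 fell, which is 5.88% and near the 6.77% of all tested rows. cyp26b1, which encodes a retinoic acid hydroxylase that removes the hormone, had 4.41, 4.89 and 3.53 FPKM in labelled hypoxia libraries, against 9.28, 7.36 and 10.3 FPKM in labelled control libraries (log2 change -0.92 ± 0.17; limma, adjusted p = 0.0353). It passed without hypoxia library 2 alone among the fits with 1 library left out, and missed without the filter on low values (adjusted p = 0.0589). aldh1a2, the gene of a retinoic acid synthesis enzyme, had 8.87, 8.08 and 9.08 FPKM in labelled hypoxia and 2.22, 4.25 and 5.62 FPKM in labelled control. These groups did not overlap, and the row did not pass (adjusted p = 0.0842). The median log2 changes of the polyamine and retinoid lists were -0.03 and 0.04.

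No tested row passed in the list of factor XIII and fibrin (0 of 5) or in that of epithelial envelope and junction substrates (0 of 18), with 2 and 8 rows at an unadjusted limma p under 0.05, beside 25.4% of all tested rows, and median log2 changes of 0.31 and 0.26. Fibrinogen is made by the liver, and fga was the one fibrinogen chain tested, at means of 2.22 FPKM in labelled hypoxia and 1.60 FPKM in labelled control. vwf, the gene of the adhesive protein von Willebrand factor, had 43.7, 29.4 and 45.4 FPKM in labelled hypoxia and 16.4, 21.4 and 31.8 FPKM in labelled control (limma, adjusted p = 0.158). plaua, a urokinase-type plasminogen activator gene, had 3.22, 5.76 and 4.12 FPKM in labelled hypoxia and 1.48, 2.93 and 2.64 FPKM in labelled control (adjusted p = 0.170). Among the epithelial rows the smallest p belonged to the keratins krt15 and krt5. krt15 averaged 294 ± 29.1 FPKM in labelled hypoxia and 211 ± 5.90 FPKM in labelled control (SD, n = 3 each; limma, adjusted p = 0.0542), and krt5 693 ± 69.9 FPKM in labelled hypoxia and 474 ± 53.7 FPKM in labelled control (adjusted p = 0.0605). When rows under a mean of 5 FPKM were left out, 3 of 14 epithelial rows passed, all higher in labelled hypoxia: krt15 (adjusted p = 0.0384), krt5 (0.0391) and the plakophilin gene PKP1 (0.0353). In that fit 1667 of all 11390 tested rows passed, 779 higher and 888 lower, and nothing is read from the epithelial count. Unlike tgm5l, krt15 and krt5 were lower in each labelled control library than in each labelled hypoxia library. Like tgm5l, the substrate rows anxa1a, anxa1c, evpla and ppl were higher in each labelled control library, and none of them passed.

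**Figure D4:**
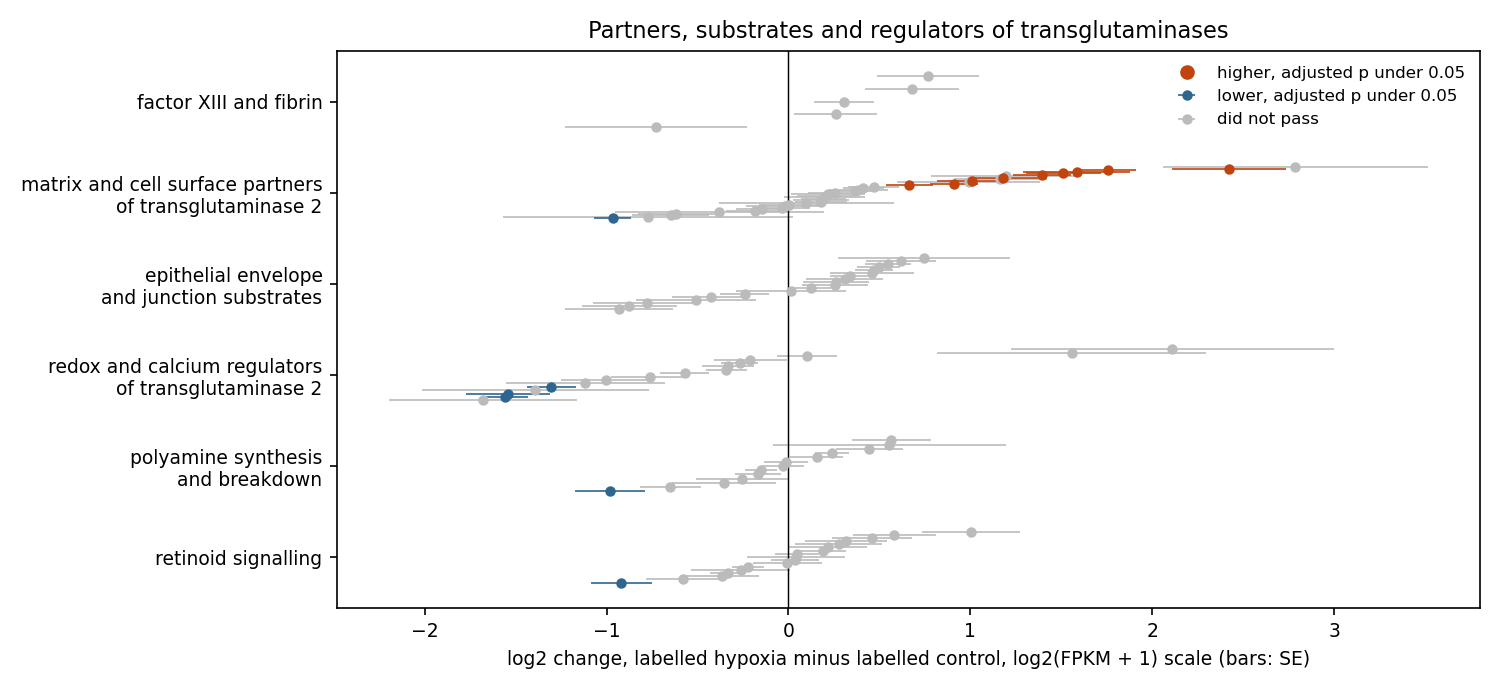
Change on the log2(FPKM + 1) scale, labelled hypoxia less labelled control, of each of 104 tested rows in the 6 lists, with bars of 1 SE. Rows that passed an adjusted p under 0.05 are red (higher, 9) or blue (lower, 6), and grey rows did not pass. The red points all lie in the matrix list, and 3 of the 6 blue points in the redox and calcium list.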

How the data were processed

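One table of gill RNA-seq was used, with an FPKM column for each of 6 libraries and no unmatched column. The authors deposited values already in FPKM. HISAT and StringTie are the tools named, per the submitters' processing notes, while versions and the genome build were not given in the sources used here. Among 40538 rows, 37062 carry StringTie and 3476 Ensembl identifiers, and gene names are those of the table. Depth is unknown. Steps of values under 0.15 FPKM gave depths 1.06 to 1.21 times that of hypoxia library 1. FPKM are not counts, so log2(FPKM + 1) of the 25111 rows averaging 1 FPKM or more was fitted with limma 3.58.1 (trend, two-sided, no covariates) in R 4.3.3, and p-values were Benjamini-Hochberg adjusted over these rows at 0.05. Differences are labelled hypoxia minus labelled control. The fit was tested on simulated data. Libraries were grouped by their treatment label.

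Members, the 6 partner lists and the 10 marker lists were chosen with earlier results of these data known. Named are all members, at most 4 passing rows per list (or the 2 with the smallest p where none passed), the 5 rows most like the most changed member, and egln3. Further names (the rest of the passing matrix rows, fn1b, col5a1 MSTRG.15171, itgb3b, the other HSPA5 rows, txnipb, pdia3, PKP1, pkp1b, pkp3b MSTRG.622, ppl, anxa1a, krt4, aldh1a2, fga, jupa, anxa1c, evpla, marker genes, the loci numbered next to tgm8 MSTRG.25175, the rows most like tgm5l and f13a1b) were chosen after values were seen. Alternatives were a pseudocount of 0.1, no filter, a minimum mean of 5 FPKM, TPM and median-of-ratios scaling, robust empirical Bayes, the replicate number as a block, and each library left out.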

Additional observations from a re-analysis of the deposited data

How the results depend on the processing

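The number of rows called was 1699 (870 higher, 829 lower). It was 1058 with no filter on low values, 255 to 1575 with 1 library left out, and 2 with the replicate number as a block. TPM scaling changed the split to 593 higher and 942 lower, or 38.6% higher in place of 51.2%. Of the members, 2 were called, both higher, with 1 called without the filter, 0 with the block, and 1 to 2 with 1 library left out. The fit with 2 calls was that without control library 3, and there 1 was higher and 1 lower. The 2 calls of the main fit thus did not recur together with any 1 library left out. As the family was chosen with this contrast in view, these member counts are a description and nothing is read from them. Of partner rows 15 were called, 0 with the block and 5 to 13 with 1 library left out (5 without hypoxia library 1, control library 2 or control library 3, 6 without hypoxia library 3). At an unadjusted limma p under 0.05, 42 of 104 partner rows were counted under the block, beside 20.3% of all tested rows. The partner lists were chosen with earlier results of these data known, so nothing is read from this count. Deviations of same-numbered libraries from their group means correlated at -0.056, -0.0437 and -0.116. With 3 libraries per group, these values cannot show whether same-numbered libraries shared a tank or batch. Without a pairing in the labels the block calls say nothing of effect size. The sign of the log2 change of f13a1b turned without control library 1 (0.06), and that of tgm1l2, which was near 0, without hypoxia library 3 (0.06), control library 2 (0.01) or control library 3 (0.10). No other member above 1 FPKM in more than 1 library and no partner row listed by the naming rule changed sign. With 3 libraries per group and unknown depth, the error of a value, low ones above all, is known only as the spread between libraries.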
